A study of Mus musculus with 6 samples.

Results

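Integrins are adhesion receptors made of 1 alpha and 1 beta subunit, and 10 of their subunit genes are described here in livers of mice given the compound iD1. They are the alpha genes Itga1, Itga2, Itga5, Itga6, Itga9 and Itgav and the beta genes Itgb1, Itgb3, Itgb5 and Itgb8, found by symbol among the 34866 genes of the deposited count table. The iD1 group had 3 liver libraries and the vehicle group had 3, all from male C57BL/6 mice of 8 weeks. The labels give an intraperitoneal injection of a drug. They do not state the dose, the time of exposure or the target of iD1, and no structure is given for it. For the vehicle group the treatment field says untreated, whereas the titles speak of a vehicle. The labels do not say whether each library is a separate animal, so errors and p-values cover only how much these samples vary, which may be technical. The set was chosen by the measured difference between iD1 and vehicle livers, above all the rise of Itga2 in count tests of these libraries. Their differences between the groups are therefore given as a description, without p-values.

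The alpha subunit largely sets which ligand an integrin binds, and the beta subunit carries the tail that links it to the actin skeleton through talin and kindlin. Alpha1 and alpha2 pair with beta1 as collagen receptors, alpha6 forms laminin receptors and alpha5 with beta1 is the main fibronectin receptor. Alphav pairs with beta1, beta3, beta5 or beta8 and reads the RGD sequence of fibronectin, vitronectin and the latent form of TGF-beta. In liver, hepatocytes, sinusoidal endothelial cells, stellate cells, Kupffer cells and bile duct cells each carry their own set of these subunits. In whole-liver RNA, fewer cells of a type and less RNA per cell cannot be told apart.

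The library totals ran from 23515571 to 35207596 estimated counts in iD1 livers and from 27160894 to 37613549 in vehicle livers. Of the 13718 genes with enough counts to be tested, 2293 (16.7%) were called, meaning a Benjamini-Hochberg adjusted p under 0.05 from the quasi-likelihood test of edgeR. Of these 1155 were higher (8.42% of tested genes) and 1138 lower (8.3%) with iD1. The split was 902 higher and 1447 lower with upper-quartile scaling, and 597 higher and 1883 lower with library size only. With library size only, all genes together had a median log2 fold change of -0.20, against 0.0006 with the TMM scaling used here. Leaving out a library gave 1509 called genes for iD1 replicate 2, 1231 for iD1 replicate 3, 1484 for vehicle replicate 1, 1308 for vehicle replicate 2 and 1212 for the unnumbered vehicle replicate. Mitochondrially encoded genes took 8.68% to 10.3% of the counts in iD1 livers and 10.6% to 13.6% in vehicle livers.

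All 10 subunit genes passed the filter on low counts. Itga2 and Itgb3 rose in iD1 livers, Itga5 and Itgb5 fell, and the other 6 did not pass the threshold. These 4 of 10 stand beside 16.7% of all tested genes, a share from which nothing is read because the same contrast guided the choice of the genes. The median log2 fold change of the 10 genes was -0.13, against 0.0006 over all tested genes. In 7 of the 10 the iD1 and vehicle values were separate, with all iD1 libraries above in 2 and all below in 5. Among all tested genes 37.2% were separate, 18.5% with iD1 above and 18.7% below.

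**Figure D1:**
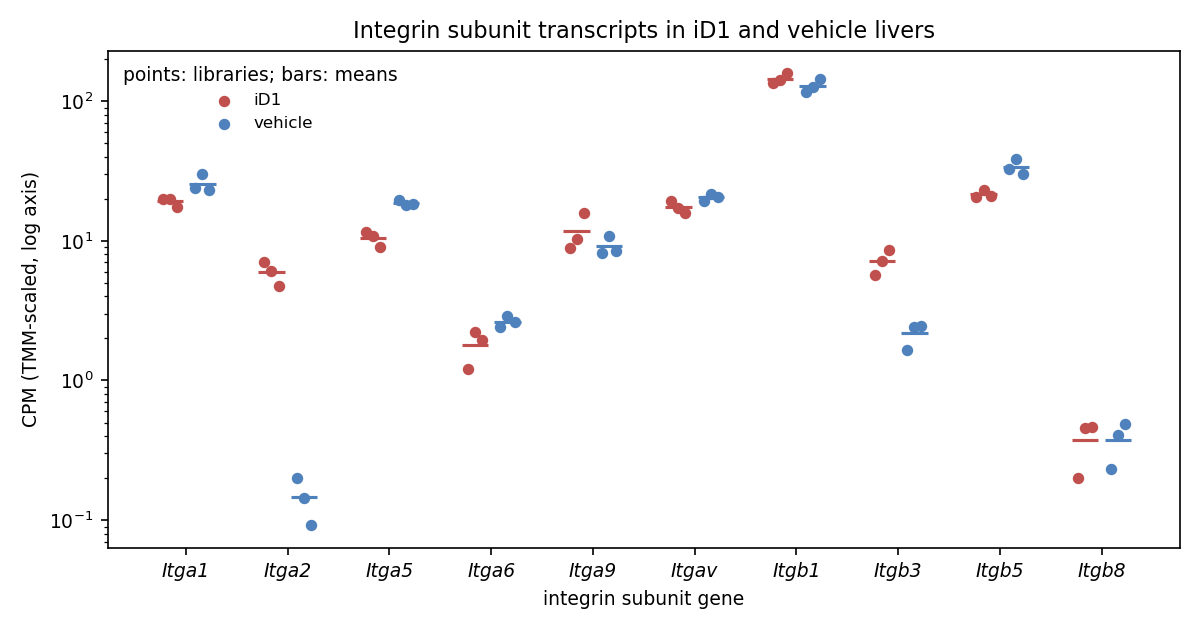
Scaled counts (CPM, log axis) of the 10 integrin subunit genes, with iD1 libraries in red and vehicle libraries in blue, one point per library and a bar at each mean of 3. The 3 Itga2 points of iD1 livers sit between 4.78 and 7.01 CPM, all above the vehicle points, which lie at or under 0.200 CPM.

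Itga2 encodes the alpha2 chain of the collagen receptor alpha2beta1, known on platelets, fibroblasts and epithelia. The gene (ENSMUSG00000015533) is protein-coding and lies on the minus strand of chromosome 13 from 114833081 to 114932100 in GENCODE M21 on GRCm38. Levels are given as CPM, counts scaled to library size. Itga2 had 7.01, 6.12 and 4.78 CPM in iD1 replicates 1, 2 and 3. In vehicle livers it had 0.200 CPM in replicate 1, 0.145 in replicate 2 and 0.0919 in the unnumbered replicate. The transcript was thus near the limit of detection in vehicle livers and measurable in each iD1 liver. Behind these values stand 174, 189 and 103 estimated counts in the iD1 libraries against 6, 6 and 3 in the vehicle libraries. On average it reached 5.97 ± 1.12 CPM in iD1 livers and 0.145 ± 0.0538 CPM in vehicle livers (SD, n = 3 each). The fitted log2 fold change was 5.33 (SE 0.31), a fold of 40.3. With only 15 counts in all vehicle libraries together, the size of this ratio is imprecise. Under the 15 other settings of the fit it ranged from 5.11 to 5.58. It was the ninth highest log2 fold change of all tested genes. Nothing is read from this rank, because Itga2 was chosen by its rise. With 6, 6 and 3 counts in the vehicle libraries, Itga2 also needed the iD1 libraries to pass the filter on low counts.

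The 2 collagen-binding alpha genes are neighbours on chromosome 13, and their start regions are shown because Itga2 was called and Itga1 was not. Those calls come from the contrast that chose the genes, and the difference between the 2 genes was not tested. Each sequence is the RefSeq window on GRCm38.p6 from 250 bases before to 50 bases after the start of transcription, on the minus strand and 5′ to 3′. Capitals mark the GC box letters GGGCGG, which the Itga1 window lacks on both strands. In the Itga2 window they begin at position 2 relative to the start of transcription. Whether they bear on the levels of the 2 genes was not tested. The window of Itga2 is chr13:114932051-114932350 and that of Itga1 is chr13:115101915-115102214.
Itga2: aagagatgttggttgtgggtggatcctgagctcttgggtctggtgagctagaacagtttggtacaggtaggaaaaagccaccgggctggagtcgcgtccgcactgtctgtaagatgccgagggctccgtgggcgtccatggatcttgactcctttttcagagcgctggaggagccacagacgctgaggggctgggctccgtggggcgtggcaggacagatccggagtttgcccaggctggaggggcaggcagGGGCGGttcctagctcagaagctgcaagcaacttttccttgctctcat
Itga1: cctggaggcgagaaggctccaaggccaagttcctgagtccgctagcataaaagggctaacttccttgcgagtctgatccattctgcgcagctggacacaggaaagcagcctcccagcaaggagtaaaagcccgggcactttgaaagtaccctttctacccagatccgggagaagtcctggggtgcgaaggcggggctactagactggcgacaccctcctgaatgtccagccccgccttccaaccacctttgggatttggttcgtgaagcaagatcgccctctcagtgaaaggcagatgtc

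Itga1 encodes alpha1, whose dimer with beta1 prefers the collagen of basement membranes. It measured 20.1, 19.96 and 17.4 CPM in iD1 replicates 1 to 3, against 23.9, 30.3 and 22.97 CPM in vehicle replicates 1, 2 and the unnumbered one. All iD1 values lay below all vehicle values. The log2 fold change of -0.43 (SE 0.14) did not pass the threshold. It did pass with upper-quartile scaling (-0.50), with library size only (-0.63) and with no filter on low counts (-0.44). Exons of Itga1 share 685 bases on the same strand with the protein-coding gene Gm49395, so their counts may hold reads of each other. Per kilobase of merged exons, the Itga2 level was 91.1%, 79.9% and 71.8% of the Itga1 level in iD1 replicates 1 to 3. In vehicle livers it was 2.18%, 1.24% and 1.04%. With lengths of the longest transcripts it was 53.9%, 47.3% and 42.5% in iD1 livers and 1.29%, 0.736% and 0.617% in vehicle livers, so the ratio depends on the length used. On both lengths Itga2 lay nearer to Itga1 in iD1 livers.

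Itga6 encodes the laminin-binding alpha6. It had 1.21, 2.23 and 1.95 CPM in iD1 livers, against 2.39, 2.89 and 2.63 CPM in vehicle livers. The groups did not overlap, iD1 replicate 1 was the lowest library, and the log2 fold change of -0.55 (SE 0.26) did not pass the threshold. Itga9 encodes alpha9, a subunit that binds tenascin-C and osteopontin. It had 8.83, 10.4 and 15.9 CPM in iD1 livers and 8.15, 10.9 and 8.42 CPM in vehicle livers. The groups overlapped, with iD1 replicate 3 above every other library, and the log2 fold change was 0.35 (SE 0.22).

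Itga5 encodes alpha5, which with beta1 binds fibronectin and drives its assembly into fibrils. It measured 11.6, 10.8 and 9.05 CPM in iD1 livers, against 19.6, 18.2 and 18.3 CPM in vehicle livers. All 3 iD1 livers lay well below the narrow vehicle range, with means of 10.5 ± 1.32 and 18.7 ± 0.785 CPM (SD, n = 3 each). The log2 fold change was -0.83 (SE 0.13), or 0.562 of the vehicle level. Itgav encodes alphav, the partner of most RGD-binding beta chains. It had 19.1, 17.1 and 15.8 CPM in iD1 livers and 19.4, 21.6 and 20.5 CPM in vehicle livers. The groups did not overlap but nearly touched, and the log2 fold change of -0.24 (SE 0.12) did not pass the threshold. Exons of Itgav share 634 bases with Gm13684 on the other strand, and no source used here says whether strand was used in counting.

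Itgb1 encodes beta1, the chain shared by alpha1, alpha2, alpha5, alpha6 and alpha9. It had 134, 143 and 158 CPM in iD1 livers and 117, 126 and 144 CPM in vehicle livers. The groups overlapped. Its log2 fold change of 0.17 (SE 0.13) did not pass the threshold and turned to -0.03 with library size only.

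Itgb3 encodes beta3, which pairs with alphav on endothelial and other cells and with alphaIIb on platelets. It had 5.72, 7.15 and 8.54 CPM in iD1 livers, against 1.66, 2.43 and 2.45 CPM in vehicle livers. Each iD1 liver lay well above the highest vehicle liver. The means were 7.14 ± 1.41 and 2.18 ± 0.450 CPM (SD, n = 3 each), and the log2 fold change was 1.70 (SE 0.22), a fold of 3.25. The gene (ENSMUSG00000020689) lies on chromosome 11 from 104608000 to 104670476.

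Itgb5 encodes beta5, which pairs with alphav as a receptor for vitronectin. It had 20.6, 23.3 and 21.1 CPM in iD1 livers, against 32.9, 38.3 and 30.3 CPM in vehicle livers. No iD1 liver reached the vehicle range, with means of 21.6 ± 1.46 and 33.8 ± 4.06 CPM (SD, n = 3 each). The log2 fold change was -0.64 (SE 0.13). Itgb8 encodes beta8, the partner of alphav in freeing active TGF-beta from its latent complex. It had only 5, 14 and 10 counts in the iD1 libraries and 7, 17 and 16 in the vehicle libraries. The log2 fold change of -0.03 (SE 0.47) had an error too wide to show a modest difference at this depth, and its sign changed under 4 of the 14 other settings in which it was tested.

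**Figure D2:**
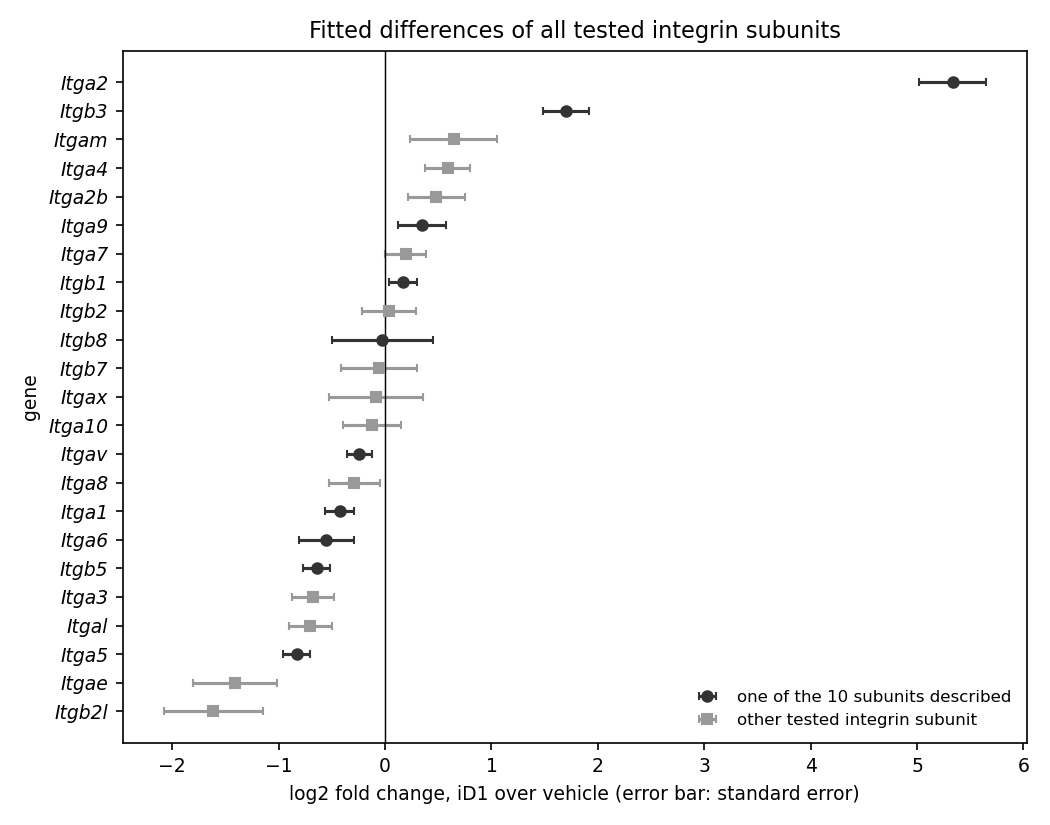
Fitted log2 fold change of iD1 over vehicle for the 10 described subunits (dark circles) and the 13 other tested integrin subunits (grey squares), with standard errors as bars. Itga2 at 5.33 and Itgb3 at 1.70 stand at the top, and Itgb2l at -1.61 and Itgae at -1.41 at the bottom.

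Levels of different genes were compared per kilobase, as CPM divided by the length of the merged exons. In iD1 livers the order ran from Itgb1 (35.6 ± 2.96 CPM per kb), Itgb5 (6.09 ± 0.410) and Itga5 (2.13 ± 0.268) through Itgav, Itga9, Itgb3, Itga1 and Itga2 to Itga6 (0.199 ± 0.0586) and Itgb8 (0.0337 ± 0.0134; SD, n = 3). In vehicle livers the order was Itgb1 (31.7 ± 3.42), Itgb5 (9.52 ± 1.14), Itga5 (3.80 ± 0.159), Itgav, Itga1, Itga9, Itgb3, Itga6, Itgb8 and Itga2 (0.0204 ± 0.00755). Itga2 was thus the lowest of the 10 levels in vehicle livers and the eighth in iD1 livers. In the iD1 order on merged exons, neighbours overlapped from Itgav down to Itga2. In the vehicle order they overlapped for Itga1 and Itga9, for Itgb3 and Itga6 and for Itgb8 and Itga2. Lengths of the longest transcripts changed the middle of the iD1 order to Itgav, Itga5, Itga1, Itga9, Itgb3 and Itga2. Itga2, at 0.673 to 0.987 CPM per kb, was then clear of Itga1, at 1.58 to 1.83. In the vehicle order they exchanged Itgb3 and Itga6.

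Among the 6 alpha transcripts, the make-up shifted toward Itga2 and away from Itga5. Itga2 made up 13.1%, 11.7% and 9.32% of their summed level per kilobase in iD1 livers, against 0.332%, 0.223% and 0.156% in vehicle livers. With lengths taken from the longest transcript its mean share in iD1 livers was 8.81%, in place of 11.4%. Itga5 held 29.0% ± 3.13 in iD1 livers and 44.3% ± 3.38 in vehicle livers (SD, n = 3 each), while Itgav held 22.0% ± 1.70 and 22.2% ± 0.813. Among the beta transcripts, Itgb3 held 2.80% ± 0.347 in iD1 livers and 0.884% ± 0.129 in vehicle livers, and Itgb5 held 12.8% to 15.3% and 19.2% to 25.6%. Itgb3 stood at 16.8%, 18.5% and 24.4% of the Itgb5 level in iD1 livers, against 3.04%, 3.83% and 4.87% in vehicle livers. Itgb1 exceeded the sum of the 6 alpha transcripts in every library, by 4.40 to 5.39 times in iD1 livers and by 3.40 to 4.29 times in vehicle livers. Even in iD1 livers Itga2 reached no more than 2.99% of the Itgb1 level. The summed level of the 6 alpha genes was 7.33 ± 0.147 CPM per kb in iD1 livers and 8.59 ± 0.437 in vehicle livers.

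**Figure D3:**
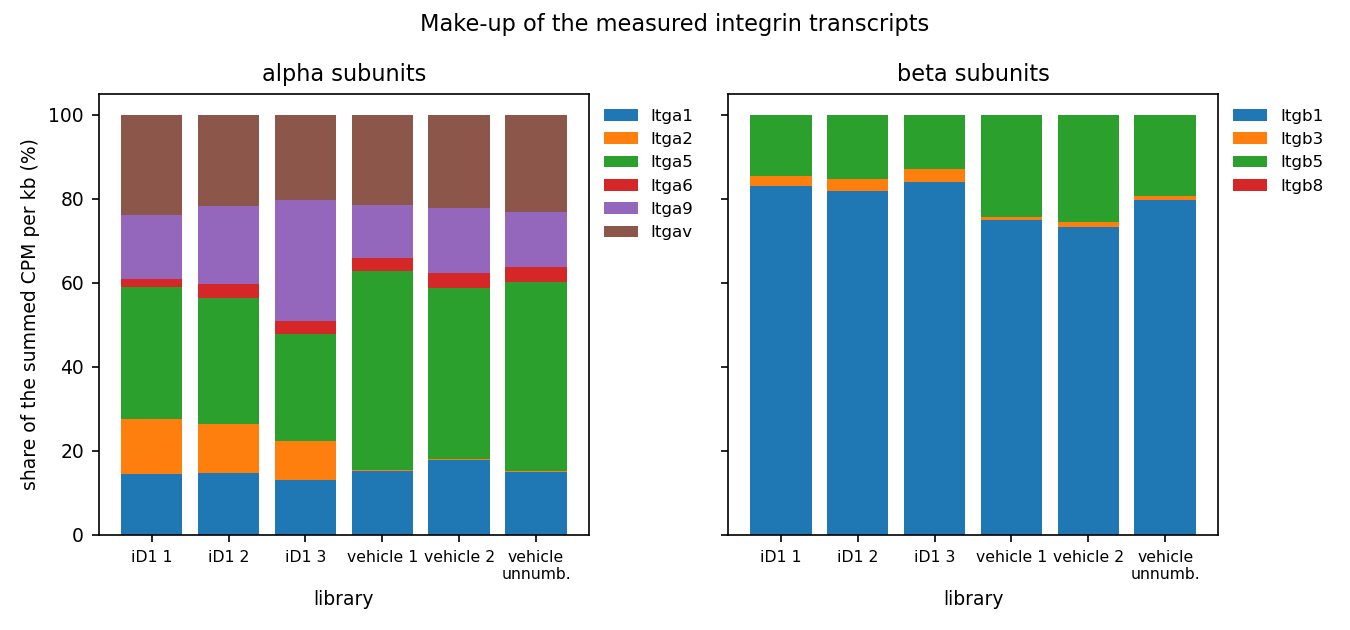
Share of each subunit in the summed CPM per kb of the 6 alpha (left) and 4 beta genes (right), one bar per library with the 3 iD1 libraries first. The orange Itga2 segment fills 9.32% to 13.1% of the alpha bars of iD1 livers and is barely visible in vehicle livers, and Itgb8 is too low to be seen.

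The position of Itga2 was not part of how it was chosen, so its neighbours were tested. Within 500000 bases on either side, 6 annotated genes had enough counts, Itga1 among them. None of the other 5 was called by edgeR, DESeq2 or limma-voom, and 0 had an unadjusted p under 0.05. Mocs2, a molybdenum cofactor synthesis gene whose end lies 806 bases from the end of Itga2, had 98.4 ± 8.39 CPM in iD1 livers and 98.1 ± 9 in vehicle livers. Its log2 fold change was 0.004 (SE 0.12, edgeR adjusted p = 0.988). Pelo, a ribosome rescue factor gene inside an intron of Itga1, had a log2 fold change of 0.15 (SE 0.13). Gm49395 had -0.32 (SE 0.25), the activin inhibitor gene Fst -0.02 (SE 0.41) and the respiratory chain gene Ndufs4 0.05 (SE 0.15).

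**Figure D4:**
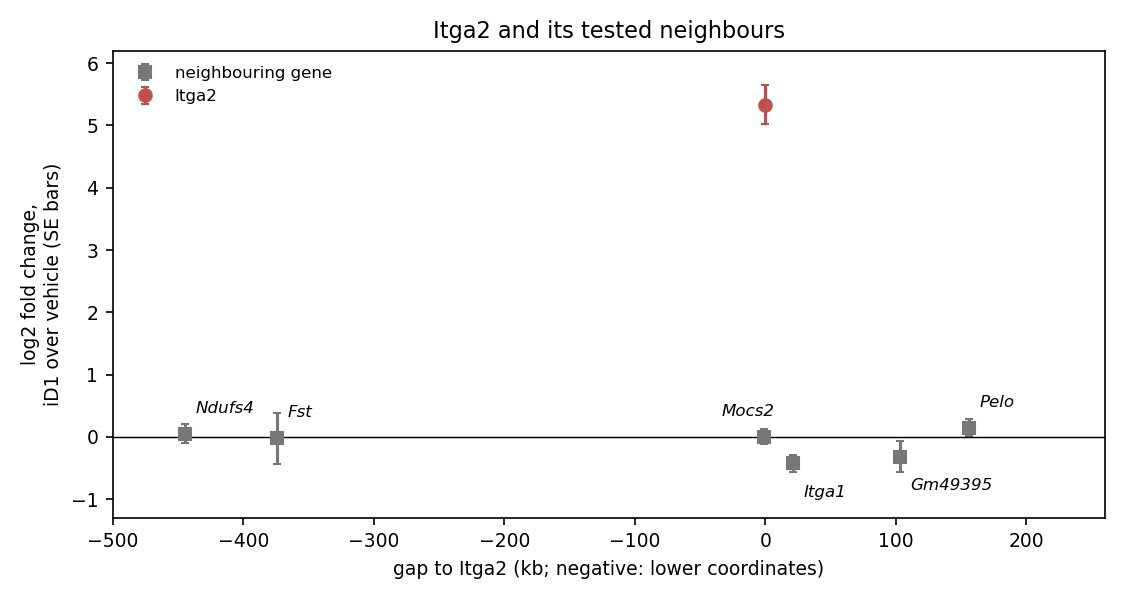
Log2 fold change of iD1 over vehicle (bars: standard error) for Itga2 and its 6 tested neighbours against the gap between the genes in kb. The neighbours lie between -0.43 and 0.15, while Itga2 lies at 5.33.

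Start regions of the 2 subunits that fell are shown to set beside that of Itga2, with GC box letters in capitals on either strand. Whether these letters bear on the differences between the groups was not tested. The window of Itga5 is chr15:103366742-103367041 on the minus strand, and that of Itgb5 is chr16:33829415-33829714 on the plus strand.
Itga5: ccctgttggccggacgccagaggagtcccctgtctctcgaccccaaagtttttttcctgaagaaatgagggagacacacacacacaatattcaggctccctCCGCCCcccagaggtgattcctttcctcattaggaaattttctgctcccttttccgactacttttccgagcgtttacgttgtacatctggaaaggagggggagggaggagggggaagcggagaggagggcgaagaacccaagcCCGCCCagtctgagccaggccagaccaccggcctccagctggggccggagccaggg
Itgb5: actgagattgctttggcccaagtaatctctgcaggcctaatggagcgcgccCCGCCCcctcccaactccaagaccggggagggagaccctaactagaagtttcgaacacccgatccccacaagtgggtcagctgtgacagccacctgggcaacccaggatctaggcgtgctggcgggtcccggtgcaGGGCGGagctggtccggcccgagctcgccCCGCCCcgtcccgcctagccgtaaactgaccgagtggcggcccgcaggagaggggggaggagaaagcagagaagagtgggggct
RefSeq windows were found for 8 of the 10 genes, without Itga6 and Itgb3. The GC box GGGCGG was in 5 of the 8 windows, those of Itga2, Itga5, Itgav, Itgb1 and Itgb5, and in 35.7% of all 32851 windows. The AP-1 letters TGANTCA were in that of Itga9 and in 7.81% of all windows. That window lies well inside the annotated Itga9 gene, at an internal start. None of the 8 held the NF-kB motif, the palindromic glucocorticoid receptor motif, the CREB letters TGACGTCA or the TATA box TATAAA. These were in 0.411%, 0.475%, 1.79% and 13.6% of all windows. Both strands were searched, and no match of one motif overlapped another.

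The transcripts whose pattern over the 6 libraries was most like that of Itga2 were the chemokine gene Cxcl1, Rasd1 (a Ras-like GTPase first found as a dexamethasone-induced gene), the AP-1 subunit gene Junb, the transcription factor gene Egr1 and the sugar-phosphate transporter gene Slc37a1. Likeness was the mean absolute difference of log2 CPM over the 6 libraries, each gene centred on its vehicle mean, among 12107 genes. It was 0.37 for Cxcl1, 0.38 for Rasd1, 0.46 for Junb, 0.46 for Egr1 and 0.52 for Slc37a1. The centred log2 CPM of Itga2 averaged 4.85 in iD1 livers. For these 5 genes, in the same order, it averaged 5.28, 4.27, 4.25, 5.49 and 3.99. The measure thus mainly finds genes with a rise of similar size. That rise is the difference by which Itga2 was chosen, so nothing further is read from it. With a prior count of 0.5 in place of 2, Cxcl1, Egr1 and Rasd1 stayed among the nearest 5. Rasd1 had few counts in vehicle livers too, with 3.02, 7.44 and 5.94 CPM in iD1 livers and 0.233, 0.193 and 0.184 CPM in vehicle livers. Unlike Itga2, Rasd1 was lowest in iD1 replicate 1. The order of the iD1 libraries in Itga2, highest in replicate 1, was shared by Egr1 alone among the 5, with 190, 53.4 and 55.4 CPM, and there only in which library was highest.

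Among the other integrin subunits no gene rose. Of 17, 13 were tested, 0 rose and 4 fell, beside 8.42% and 8.3% of all tested genes, and the median log2 fold change was -0.08. Itgae, which pairs with beta7 on T cells in epithelia, had 0.279 ± 0.0843 CPM in iD1 livers and 0.740 ± 0.103 in vehicle livers (log2 fold change -1.41, SE 0.39, edgeR adjusted p = 0.0369). Itgal, the alpha chain of the leukocyte integrin LFA-1, had 3.46 ± 0.699 and 5.60 ± 0.757 CPM (-0.70, SE 0.20, edgeR adjusted p = 0.0396). Itgb2l had 0.296 ± 0.133 and 0.918 ± 0.353 CPM (edgeR adjusted p = 0.0416), and the laminin-binding Itga3 had 3.08 ± 0.670 and 4.94 ± 0.256 CPM (edgeR adjusted p = 0.0433). Each of these calls was close to the threshold. In the iD1 libraries Itgae had 9, 6 and 6 counts and Itgb2l had 11, 8 and 4. Both needed the vehicle libraries to pass the filter on low counts. Nothing is therefore read from 4 of 13 beside the 8.3% of all tested genes called lower. The count of 4 was 2 without iD1 replicate 1, 1 without iD1 replicate 2 or 3, 1 without vehicle replicate 1 or the unnumbered one, and 0 without vehicle replicate 2. Their adjusted p without 1 library was at most 0.125 for Itgae, 0.132 for Itgal, 0.132 for Itgb2l and 0.137 for Itga3. Itgae was not called by DESeq2 (0.0631) or with no filter on low counts (0.0534), and Itgb2l was not called by limma-voom (0.0617, all adjusted p). Itga2b, the platelet partner of beta3, had 1.81, 2.30 and 3.48 CPM in iD1 livers and 1.76, 1.69 and 1.96 CPM in vehicle livers. The groups overlapped, and Itga2b was not called (edgeR adjusted p = 0.257). It was named after its values were seen.

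Genes for the collagens that alpha1beta1 and alpha2beta1 bind showed no called change, in 0 of 16 tested genes with edgeR. Of them 3 had an unadjusted p under 0.05, 3 were called by DESeq2 and 1 by limma-voom. The 2 with the smallest p were Col3a1, a fibrillar collagen with 5.08, 8.15 and 8.82 CPM in iD1 livers and 9.91, 21.7 and 15.3 CPM in vehicle livers (edgeR adjusted p = 0.0588), and Col4a1, a basement membrane collagen with 20.2, 24.8 and 28.3 CPM and 12.7, 20.9 and 14.3 CPM (edgeR adjusted p = 0.0717). Collagen calls numbered 2 without vehicle replicate 1 and 1 without vehicle replicate 2 or iD1 replicate 1. Of 15 laminin and basement membrane genes, 1 fell, beside 8.3% of all tested genes. It was Nid2, encoding the laminin linker nidogen 2, with 4.15, 2.33 and 2.88 CPM in iD1 livers and 7.65, 10.4 and 7.17 CPM in vehicle livers (edgeR adjusted p = 0.00455).

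Among the ligands of the RGD-binding and leukocyte integrins, 6 of 18 tested genes rose and 0 fell, beside 8.42% of all tested genes higher. Their median log2 fold change was 0.27. They were the 3 fibrinogen chain genes Fga, Fgb and Fgg, with log2 fold changes from 1.87 to 1.95, fibronectin (Fn1), vitronectin (Vtn) and Icam1, the counter-receptor of LFA-1. Fn1, the ligand of alpha5beta1, had 1252, 1597 and 964 CPM in iD1 livers and 423, 735 and 473 CPM in vehicle livers (edgeR adjusted p = 0.0128). Fn1 and Itga5 thus differed in opposite directions. The call of Fn1 was lost without the unnumbered vehicle replicate (edgeR adjusted p = 0.0674). That of Vtn (1597 ± 236 against 1069 ± 79.5 CPM, edgeR adjusted p = 0.0416) was lost without any 1 library, with at most 0.157, with upper-quartile scaling (0.0658) and with library size only (0.137). Icam1 was no longer called when iD1 replicate 2, iD1 replicate 3 or any single vehicle library was left out (adjusted p at most 0.0943). The count of 6 was 3 without the unnumbered vehicle replicate.

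In the list of latent TGF-beta genes, which alphav integrins act on, 2 of 14 rose and 0 fell, beside 8.42% and 8.3% of all tested genes, with a median log2 fold change of 0.18. Among them, Tgfb3 had 1.52 ± 0.531 CPM in iD1 livers and 0.573 ± 0.0634 in vehicle livers (edgeR adjusted p = 0.0252). Leaving out iD1 replicate 2, iD1 replicate 3 or any single vehicle library ended the call, with an adjusted p of at most 0.0918.

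Inside the cell, genes of integrin activation and focal adhesion changed in both directions. Of 39 tested, 2 rose and 4 fell, beside 8.42% and 8.3% of all tested genes, and the median log2 fold change was -0.20. Among tensins, which bind beta tails, Tns2 rose, with 35.6, 55.2 and 61.7 CPM in iD1 livers against 19.5, 23.8 and 26.3 CPM in vehicle livers (log2 fold change 1.13, SE 0.21, edgeR adjusted p = 0.00800). Tns3 fell, with 15.2, 10.1 and 11.0 CPM in iD1 livers against 24.6, 34.1 and 25.2 CPM in vehicle livers (-1.22, SE 0.19, edgeR adjusted p = 0.00351). The kindlin-2 gene Fermt2, whose product activates beta1 and beta3, had 53.8 ± 4.62 CPM in iD1 livers and 88.2 ± 14.8 in vehicle livers (edgeR adjusted p = 0.00997). The vinculin gene Vcl, which ties talin to actin, had 19.7 ± 5.69 and 42.1 ± 9.81 CPM (edgeR adjusted p = 0.0151). The call of Vcl was lost without iD1 replicate 3, with an adjusted p of 0.0663. The other 2 called genes, named after their values were seen, were Tns1, higher, and the kinase gene Ptk2b, lower. Leaving out any single iD1 library, vehicle replicate 1 or the unnumbered one ended the call of Tns1. Leaving out iD1 replicate 1 or 2, or vehicle replicate 1 or 2, ended that of Ptk2b. The adjusted p was then at most 0.122 for Tns1 and 0.0929 for Ptk2b. Tns1 was also not called with library size only (0.0645) or no filter (0.117). The count of 6 was 4 without vehicle replicate 1 or iD1 replicate 2 and 9 without iD1 replicate 1.

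**Figure D5:**
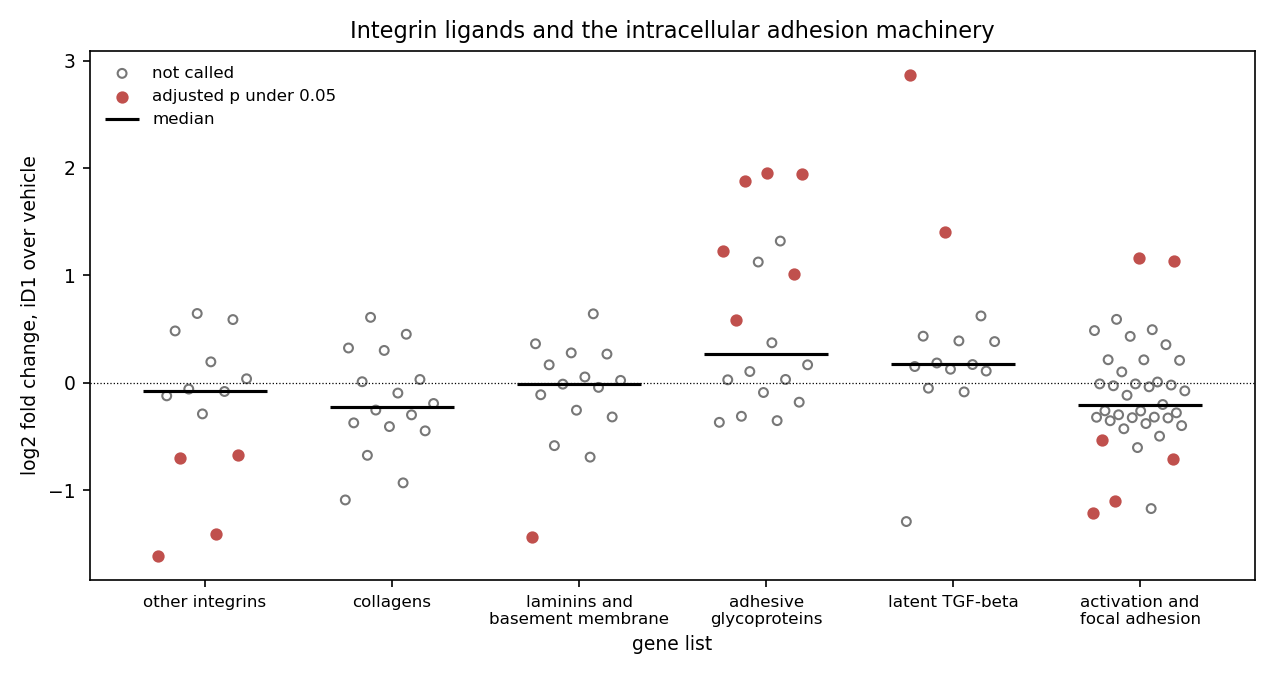
Log2 fold change of iD1 over vehicle for every tested gene of 6 lists, with red points for an adjusted p under 0.05 and a black bar at each median. The adhesive glycoproteins hold 6 red points, all above 0, and the list of activation and focal adhesion has its median at -0.20.

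Markers of the cell types that carry these subunits were read beside them. Platelet markers, which bear on Itga2 and Itgb3, summed to 7.74 to 10.5 CPM in iD1 livers and 7.12 to 9.40 CPM in vehicle livers. Most of each sum was Clec1b, named after its values were seen. Clec1b had 6.29, 6.70 and 8.68 CPM in iD1 livers and 5.99, 6.70 and 7.93 CPM in vehicle livers. The sum thus mainly follows this 1 gene and says little of the rest of the list. Of the 11 platelet markers, 4 were tested, 0 were called by edgeR, DESeq2 or limma-voom and 0 had an unadjusted p under 0.05. Gp1ba, a part of the von Willebrand factor receptor, had 0.602 ± 0.260 CPM in iD1 livers and 0.456 ± 0.256 in vehicle livers, and the collagen receptor gene Gp6 had 0.208 ± 0.249 and 0.356 ± 0.182 CPM. Endothelial markers summed to 228 to 297 CPM in iD1 livers and 278 to 356 CPM in vehicle livers. Of 13, 1 fell, beside 8.3% of all tested genes. It was the Fc receptor gene Fcgr2b, with 28.7 ± 5.68 and 42.2 ± 0.323 CPM (edgeR adjusted p = 0.0327, lost without iD1 replicate 2 or any 1 vehicle library, at most 0.0856). The endothelial count was 2, both lower, without iD1 replicate 1 or 3 and 0 without any 1 vehicle library. Their median log2 fold change was -0.41. All iD1 values were below in 5 of the 13, beside 18.7% of all tested genes, and above in 1, beside 18.5%. That 1 was the lymphatic and sinusoidal marker Lyve1, named after its values were seen, with 18.7, 39.9 and 38.2 CPM in iD1 livers and 4.99, 17.4 and 13.2 CPM in vehicle livers. Its log2 fold change was 1.43 (SE 0.53, edgeR adjusted p = 0.139). It was called higher by limma-voom (adjusted p = 0.0483), without robust shrinkage (0.0496) and with the replicate block (0.00432), and in no other setting. Among the 5 below were Kdr and Clec4g, also named after their values were seen. Kdr had a log2 fold change of -0.98 (SE 0.32, edgeR adjusted p = 0.0883). It was called lower by DESeq2 (adjusted p = 0.00508), by limma-voom (0.0388) and without iD1 replicate 2 (0.0363), and in no other setting. Clec4g had -0.41 (SE 0.13, edgeR adjusted p = 0.0516) and was called lower by DESeq2 (adjusted p = 0.0422). It was also called lower with upper-quartile scaling (0.0272), library size only (0.0164) and no filter on low counts (0.0382). The same held with a minimum count of 30 (0.0451) and without iD1 replicate 3 (0.0488). It was not called in the other settings, limma-voom among them.

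Stellate cell markers summed to 273 to 367 CPM in iD1 livers and 270 to 353 CPM in vehicle livers. Of 12, 1 fell, beside 8.3% of all tested genes, and 2 were called without iD1 replicate 1. The 1 was the retinol-esterifying enzyme gene Lrat, with 6.34 ± 2.21 and 21.4 ± 3.44 CPM (edgeR adjusted p = 0.00289). Kupffer cell markers summed to 154 to 225 CPM in iD1 livers and 161 to 265 CPM in vehicle livers. None of 12 was called by edgeR or limma-voom, 1 was called by DESeq2 and 3 had an unadjusted p under 0.05, with the smallest for the scavenger receptor gene Marco (5.05 ± 0.175 and 2.97 ± 0.888 CPM, edgeR adjusted p = 0.0514) and Cd68 (3.20 ± 0.201 and 4.75 ± 0.680 CPM, 0.0578). Of the Kupffer list, 2 were called without vehicle replicate 1. Bile duct markers summed to 14.4 to 23.6 CPM in iD1 livers and 19.1 to 22.9 CPM in vehicle livers. Of 7 tested, Sox9 was higher and Krt19 and Sox4 were lower, beside 8.42% and 8.3% of all tested genes. Krt19 had 0.184 ± 0.0935 CPM in iD1 livers and 1.23 ± 0.134 in vehicle livers (edgeR adjusted p = 0.00312). With 3, 9 and 3 counts in the iD1 libraries, Krt19 needed the vehicle libraries to pass the filter on low counts. Nothing is therefore read from 2 of 7 beside the 8.3% of all tested genes called lower. The calls of Sox9 and Sox4 were lost without any 1 vehicle library or iD1 replicate 2, that of Sox9 also without iD1 replicate 1 and that of Sox4 also without iD1 replicate 3, with at most 0.125 and 0.107. Sox9 was also not called with upper-quartile scaling (0.0545), library size only (0.125) or limma-voom (0.0549). The bile duct count of 3 was 1 without iD1 replicate 2 or any 1 vehicle library.

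Neutrophil markers summed to 4.09 to 12.3 CPM in iD1 livers and 1.47 to 2.26 CPM in vehicle livers. Of 10, 5 were tested and 3 rose, Retnlg, S100a8 and S100a9, while Ltf was at 0 in every library. The 3 genes had means of 0.766 ± 0.430, 1.36 ± 1.15 and 2.54 ± 2.63 CPM in iD1 livers. In vehicle livers their means were 0.0213, 0.0784 and 0.223 CPM. S100a9 was highest in iD1 replicate 2, at 5.57 CPM. In the vehicle libraries Retnlg had 1, 0 and 1 counts, S100a8 had 2, 7 and 0 and S100a9 had 4, 7 and 12. All 3 needed the iD1 libraries to pass the filter on low counts. Nothing is therefore read from 3 of 5 beside the 8.42% of all tested genes called higher. Only Retnlg was called when vehicle replicate 1 or the unnumbered one was left out. S100a9 also lost its call without vehicle replicate 2 (0.150) or iD1 replicate 3 (0.0639), with limma-voom (0.0545) and with no filter on low counts (0.162, all adjusted p). Lymphocyte markers summed to 2.10 to 3.31 CPM in iD1 livers and 3.01 to 6.12 CPM in vehicle livers, beside the lower Itgae and Itgal. None of the 3 tested was called by edgeR, DESeq2 or limma-voom, and 1 had an unadjusted p under 0.05, Cd4, with 0.744 ± 0.194 and 1.55 ± 0.415 CPM (edgeR adjusted p = 0.0552), while Trac had 0.275 ± 0.106 and 0.345 ± 0.0633 CPM. Cd4 was the 1 called without iD1 replicate 1. Mesothelial markers summed to 1.20 to 3.59 CPM in iD1 livers and 2.76 to 4.49 CPM in vehicle livers, and none of 3 tested was called by any of the 3 tools, or had an unadjusted p under 0.05. Gpm6a had 0.475 ± 0.180 and 0.935 ± 0.388 CPM and Msln 1.12 ± 0.558 and 0.685 ± 0.331 CPM. Hepatocyte markers summed to 110606 to 125677 CPM in iD1 livers and 84433.5 to 111228 CPM in vehicle livers. Of 12, 4 rose, beside 8.42% of all tested genes. They were Cyp2e1, Hnf4a, Apoa1 and the amino acid enzyme gene Tat. Tat had 5217 ± 1086 CPM in iD1 livers and 2038 ± 590 in vehicle livers (edgeR adjusted p = 0.00800). All iD1 values were above in 7 of the 12, beside 18.5% of all tested genes, and below in 0. DESeq2 called 6 and limma-voom 4, and 7 had an unadjusted p under 0.05. The call of Apoa1 was lost when any 1 library was left out (adjusted p at most 0.142), with upper-quartile scaling (0.0591), library size only (0.116) and no filter (0.0572). That of Hnf4a was lost with library size only (0.0694) and without iD1 replicate 2, iD1 replicate 3 or any 1 vehicle library (at most 0.108). That of Cyp2e1 was lost without iD1 replicate 3 or any 1 vehicle library (adjusted p at most 0.0781). Leaving out iD1 replicate 2 gave 2 hepatocyte calls, and leaving out iD1 replicate 3 or any single vehicle library gave 1. The part of cell make-up in the integrin differences was not tested.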

How the data were processed

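Livers of mice were profiled by RNA sequencing, with 3 iD1 and 3 vehicle libraries made with a stranded mRNA kit, per the labels' protocols. The file deposited by the authors holds estimated counts for each gene with no depth scaling. The aligner, quantifier and genome build were not given in the sources used here. In each library 22.6% to 27.7% of values had decimals, so these estimated counts were rounded before testing. The number in 1 vehicle column matched no title, so that column served as an unnumbered vehicle replicate. No 2 libraries of a group agreed within sampling noise.

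Symbols were found for 34582 identifiers. Genes were kept by filterByExpr (minimum count 10, minimum total 15), scaled by TMM and tested with edgeR 4.0.16 (robust quasi-likelihood F test, two-sided, R 4.3.3), with Benjamini-Hochberg adjustment over 13718 genes and a threshold of 0.05. With 3 against 3, an exact permutation test cannot go under p = 0.1. Standard errors are the absolute log2 fold change over the root of F. CPM was computed on library sizes scaled by TMM, with SDs from 3 libraries. Intervals of counting error are not given. Positions and exon lengths come from GENCODE M21, promoter windows from RefSeq (GRCm38.p6). The fit was tested on simulated data.

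The alternatives were other scalings, DESeq2 1.42.0, limma-voom (limma 3.58.1), other filters, no robust shrinkage, a replicate block and leaving out each library. The members, the lists and the rule for named genes were chosen with earlier results of these data known. The rule took all 10 subunits, up to 4 called genes of each list by smallest p (or 2 where none was called), the tested neighbours of Itga2 and its 5 most alike genes. Values of 2 listed genes are not reported here.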

Additional observations from a re-analysis of the deposited data

How the results depend on the processing

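As a description, since this contrast chose them, Itga2, Itga5, Itgb3 and Itgb5 had the same direction in all 15 other settings of the fit, and Itga5 and Itgb5 were not called with the replicate block. The numbers of the samples do not establish pairs: the deviations of same-numbered libraries correlated at 0.169 for number 1 and -0.127 for number 2. In the replicate block, iD1 replicate 3 and the unnumbered vehicle replicate had no partner. Only replicates 1 and 2 of each group then compared iD1 with vehicle, so its calls rest on fewer libraries than those of the main fit. With the replicate block, 827 genes and 2 members (Itga2 and Itgb3) were called, with 0 other integrins, 1 collagen gene, 1 latent TGF-beta gene, 3 focal adhesion genes and 2 hepatocyte markers. DESeq2 called 3 collagen, 3 endothelial and 1 Kupffer gene, and limma-voom 1 collagen and 3 endothelial genes. Library size only gave 1 collagen, 2 laminin and basement membrane, 2 endothelial, 2 Kupffer, 1 lymphocyte and 2 hepatocyte genes, and upper-quartile scaling 1 collagen, 2 endothelial, 1 Kupffer and 1 lymphocyte gene. A minimum count of 30 gave 2 other integrins, 1 latent TGF-beta, 2 endothelial, 0 neutrophil and 1 lymphocyte gene. It left only 8 other integrins, 11 latent TGF-beta genes and 1 neutrophil gene to be tested. The lower counts of these lists come from genes no longer tested, not from lost calls. No filter gave 2 endothelial, 1 Kupffer, 1 lymphocyte and 1 mesothelial gene. Without robust shrinkage there were 1 collagen and 2 endothelial genes. With longest-transcript lengths the Itga2 share was 8.81%, and with a prior count of 0.5 the nearest genes shared 3 of 5. The causes of the other changes were not tested. Leaving out 1 library at a time gave 1212 to 2574 called genes, 0 to 2 other integrins, 0 to 2 collagen, 3 to 5 adhesive glycoprotein, 1 to 2 latent TGF-beta, 0 to 2 endothelial, 1 to 2 stellate, 0 to 2 Kupffer, 1 to 3 neutrophil, 0 to 1 lymphocyte, 1 to 3 bile duct and 1 to 4 hepatocyte genes. Depth limits Itgb8 and the vehicle level of Itga2, where 3 counts equal 0.0798 to 0.110 CPM in the vehicle libraries.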
